A study of Mus musculus with 28 samples.

Results

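The laminins, the integrins and the other main components of the basal lamina were followed through the development of mouse peripheral nerve. The set held 39 of the 41605 genes in the count table. It comprised 10 laminin chain genes, 4 genes of laminin partners (the nidogens Nid1 and Nid2, the perlecan gene Hspg2 and the agrin gene Agrn), 17 integrin α chain genes and 8 integrin β chain genes. These genes were taken by symbol as the annotation spells them, each symbol matching 1 identifier. RNA was read by poly-A bulk sequencing at 7 stages, with 4 libraries at each of embryonic days (E) 13 and 17 and postnatal days (P) 1, 5, 14, 24 and 60. All mice were C57BL/6J wild type and were not perfused. Each E13 library came from various nerves distal to the dorsal root ganglia, pooled from 2 embryos (day 13.5 in the design, although the label reads sciatic nerve). Each E17 library (day 17.5) came from sciatic nerves pooled from 2 embryos, and each postnatal library from the sciatic nerves of 1 mouse. The outer sheaths, epineurium and perineurium, were peeled off as far as possible from E17 on. Each stage held libraries of 2 males and 2 females, but the labels do not give the sex of a library. A comparison with E13 therefore sets apart age, nerve and dissection together, and these cannot be told apart.

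A basal lamina is a thin sheet of extracellular matrix that every Schwann cell lays down around itself and its axons, and that perineurial and blood vessel cells also make. Its scaffold is built from laminins, trimers of an α, a β and a γ chain, which nidogens and the heparan sulphate proteoglycans perlecan and agrin link to a collagen IV network. Integrins, pairs of an α and a β chain, are receptors through which cells hold on to laminin and other ligands. In peripheral nerve, loss of laminin or of its receptors is known to impair radial sorting, the process by which Schwann cells separate large axons from bundles before myelinating them.

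Values are CPM, the usual depth-scaled count with library totals scaled by TMM, unless stated otherwise, and a list of 4 values is in the order of replicates 1 to 4. Levels of different genes were compared only as RPKM, that is CPM divided by the kilobases of exon of the gene, with a stage written as its mean ± SD (n = 4 libraries). Changes are log2 fold changes ± SE from edgeR's quasi-likelihood test, with p-values adjusted over all 17700 genes tested, and a gene was called at an adjusted p under 0.05 and a change of at least 2-fold. Totals ran from 13899895 to 37662780 counts per library. E13 replicate 1 and P1 replicate 1 were low, and E13 replicate 4 high, in GC-rich transcripts. The slope of a library's deviation on transcript GC content was -0.908, -0.419 and 0.706 log2 per 10 percentage points in these 3 libraries and within -0.158 and 0.195 in the other 25. The summed level of 6 Schwann cell markers was 323 to 659 CPM at E13 and at least 3212 CPM in every later library. The E13 libraries also held 619 to 1717 CPM of 6 neuronal cell body markers, against at most 29.2 CPM later, and 31.0 to 668 CPM of 6 skeletal muscle markers, against at most 26.0 CPM later. In bulk tissue, fewer cells of a type and less RNA per cell cannot be told apart.

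Of the 39 genes, 38 had enough counts to be tested. The exception was Itgb6, an epithelial integrin chain with 84 counts in all 28 libraries. Over the 7 stages together, 37 of the 38 varied, while 88.8% of all tested genes did. The other one, Itgax, stayed at or below 0.95 CPM in every library. Among the 38 the mean level was highest at E13 for 7, at E17 for 11, at P1 for 4, at P5 for 2, at P24 for 2, at P60 for 12 and at P14 for none (0).

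From E13 to E17, 19 of the 38 genes rose and 5 fell, where 14.2% of all genes tested rose and 21.2% fell. The median log2 fold change was 0.95 over the set and -0.08 over all genes. From E17 to P1, 2 rose (6.31% of all genes) and 2 fell (5.41%). From P1 to P5, 4 rose (4.05%) and 0 fell (1.79%), while 5 were lower at an unadjusted p under 0.05 of the edgeR test and DESeq2 also called 0 lower. From P5 to P14, 11 rose (7.11%) and 3 fell (4.91%). From P14 to P24, 1 rose (1.51%) and 1 fell (1.14%). From P24 to P60, 1 rose (2.55%) and 9 fell (3.41%), with a median of -0.16 over the set and -0.01 over all genes. Between E17 and P60, 14 rose (22.2%) and 12 fell (17.5%). Scaled by library totals alone, without TMM, higher and lower calls numbered 18 and 6 from E13 to E17, 2 and 3 to P1, 4 and 1 to P5, 8 and 3 to P14, 1 and 1 to P24, 2 and 7 to P60, and 14 and 16 between E17 and P60. All genes moved too, with 28.7% of 6331 calls higher from E13 to E17 (40.1% with TMM), 43% of 2251 to P1 (53.8%), 44.7% of 1102 to P5 (69.4%), 46.2% of 2143 to P14 (59.1%), 64.9% of 482 to P24, 52.5% of 1074 to P60, and 42% of 7531 between E17 and P60 (56%). In 6 genes no comparison gave a call, namely Agrn, Itga9, Itga10, Itgam, Itgax and the untested Itgb6.

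**Figure D1:**
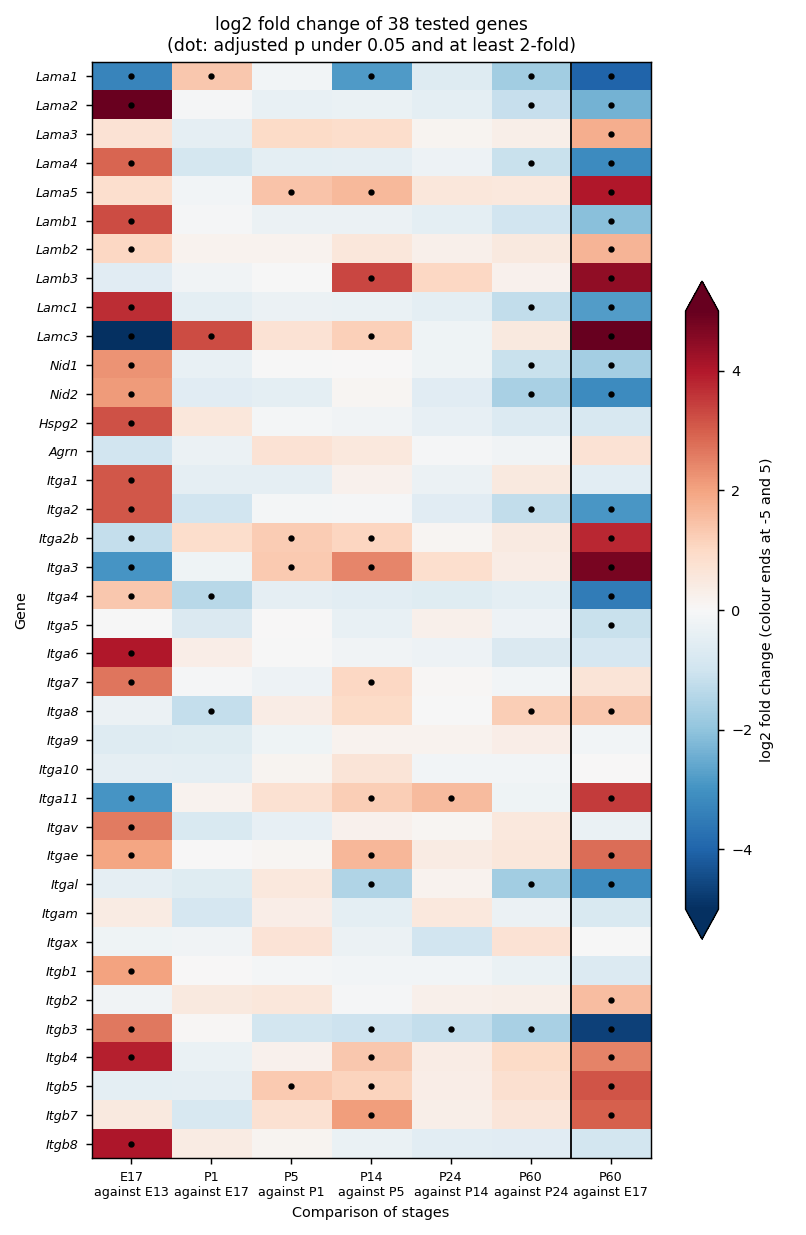
log2 fold change of each tested gene (rows) in the 6 comparisons of adjacent stages and in P60 against E17 (columns), where red is higher at the later stage, blue is lower, colours end at -5 and 5, and a dot marks an adjusted p under 0.05 with at least a 2-fold change. The first column carries most dots among adjacent stages (24 genes), and in the last column 14 red and 12 blue cells are dotted.

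Between E17 and P60 the laminin genes parted into chains that fell (Lama1, Lama2, Lama4, Lamb1, Lamc1) and chains that rose (Lama3, Lama5, Lamb2, Lamb3, Lamc3). Sequence just before the start of a gene is shown for the α and β chains that moved in opposite directions at substantial levels and for which the table holds a window (there was none for Lama4), so that their regulatory starts can be set side by side. The stretches are from RefSeq (build GRCm38.p6), 5′ to 3′ on the gene's own strand, and end before the RefSeq start or before the first base that GENCODE M21 places in an exon of the gene. Capitals mark the hexamer GGGCGG, the core of the GC box bound by SP factors, on either strand. Lama2 and Lamb1 fell after birth, and their stretches lie at chr10:27616943-27617192 (minus strand) and chr12:31265043-31265233 (plus strand). Lama5 and Lamb2 rose, and theirs lie at chr2:180225860-180226109 (minus strand) and chr9:108479612-108479735 (plus strand).
Lama2: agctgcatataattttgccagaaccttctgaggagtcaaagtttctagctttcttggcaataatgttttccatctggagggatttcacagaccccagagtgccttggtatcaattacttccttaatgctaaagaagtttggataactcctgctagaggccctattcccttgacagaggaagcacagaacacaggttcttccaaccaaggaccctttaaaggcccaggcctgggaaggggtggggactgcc
Lama5: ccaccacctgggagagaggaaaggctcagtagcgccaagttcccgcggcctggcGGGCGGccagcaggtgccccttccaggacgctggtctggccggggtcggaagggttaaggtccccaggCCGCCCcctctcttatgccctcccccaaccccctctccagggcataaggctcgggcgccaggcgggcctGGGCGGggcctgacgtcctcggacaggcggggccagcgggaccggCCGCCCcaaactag
Lamb1: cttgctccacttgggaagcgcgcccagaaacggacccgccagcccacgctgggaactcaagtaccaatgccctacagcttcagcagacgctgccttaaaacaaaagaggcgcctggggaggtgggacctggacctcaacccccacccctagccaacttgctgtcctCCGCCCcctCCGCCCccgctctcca
Lamb2: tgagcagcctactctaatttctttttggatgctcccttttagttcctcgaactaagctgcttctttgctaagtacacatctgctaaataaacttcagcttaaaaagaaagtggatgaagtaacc
Over the full window of 250 bases before the RefSeq start, Lama5 held 4 matches to GGGCGG and Lamb1 held 2, whereas Lama2 and Lamb2 held none (0). GC content of the windows was 72.4% for Lama5, 62.0% for Lamb1, 47.2% for Lama2 and 43.6% for Lamb2. Of each pair shown, the more GC-rich window thus belonged to the rising α chain and to the falling β chain. A window was in the table for 26 of the 39 genes, of which 11 held GGGCGG, against 32.7% of 32851 windows of the same length. The hexamers GGAATG (TEAD factors) and ACAAAG (SOX factors), also searched on both strands, were in 4 and 3 of the 26 windows, against 12.6% and 16.5% of all windows, and in none (0) of the 4 printed. A match is a run of letters and does not show binding. The Lama2 stretch lies inside the span that GENCODE gives the gene, some of whose transcripts start further upstream.

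Lama2 encodes the α2 chain of the main Schwann cell laminin, whose loss causes a muscular dystrophy with neuropathy. It stood at 125, 109, 66.8 and 48.3 CPM at E13 and at 2618, 2669, 2670.4 and 2681 CPM at E17. The rise was the largest among the 38 tested genes at this step (log2 fold change 4.93 ± 0.21, adjusted p = 9.1e-17). Its level was 1637, 1586, 1507 and 1687 CPM at P14, 1097, 1088, 1124 and 1305 CPM at P24 and 600.2, 516, 487 and 473 CPM at P60. No 2 of these 3 stages overlapped, and the step to P60 was the adjacent fall that passed the call (log2 fold change -1.15 ± 0.18, adjusted p = 3.2e-05). Lama4, which encodes the α4 chain found in developing nerve and in blood vessels, stood at 313, 503, 332 and 289 CPM at E13 and 2674, 2708, 2715 and 2737 CPM at E17 (log2 fold change 2.91 ± 0.13, adjusted p = 2.2e-16). It then dropped sooner than Lama2, to 1579, 1411, 1488 and 1429 CPM at P1 (log2 fold change -0.87 ± 0.12, adjusted p = 2.5e-06), a change just short of 2-fold, whereas Lama2 read 2995, 2484, 2435 and 2372 CPM at P1 (log2 fold change -0.05 ± 0.18, adjusted p = 0.88). This difference between the genes was not itself tested. At P60 Lama4 was at 337, 289, 294 and 296 CPM, below every P24 library (606, 618, 675 and 703 CPM; log2 fold change -1.10 ± 0.12, adjusted p = 2.5e-07). Against E17, the P60 level gave log2 fold change -2.36 ± 0.18, adjusted p = 1.1e-11 for Lama2 and log2 fold change -3.16 ± 0.13, adjusted p = 1.4e-17 for Lama4.

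Lama5, the α5 chain known from vascular, perineurial and epithelial basal laminae, took the opposite course. It stood at 7.37, 7.82, 9.16 and 10.7 CPM at E17, 20, 21.5, 24.6 and 17.6 CPM at P5, 59.5, 62.1, 68.7 and 66.8 CPM at P14 and 126, 149, 138 and 149 CPM at P60. All 4 libraries rose above those of the earlier stage at each of these steps, and the calls were those to P5 (log2 fold change 1.41 ± 0.26, adjusted p = 0.00027), to P14 (log2 fold change 1.62 ± 0.26, adjusted p = 1.8e-05) and from E17 to P60 (log2 fold change 4.00 ± 0.28, adjusted p = 1.3e-12). P1 replicate 1, at 4.99 CPM, lay below the other P1 libraries (8.79 to 8.95 CPM), in the direction of its low reading of GC-rich transcripts. Lama3, the α3 chain of epithelial laminins, was low, with 4.51, 3.27, 3.61 and 4.46 CPM at E17 and 14, 11.8, 15.4 and 13.8 CPM at P60 (log2 fold change 1.80 ± 0.23, adjusted p = 1.8e-07). Lama1, the α1 chain of early embryonic laminin, was highest at E13, with 32.1, 41.3, 41.1 and 49.3 CPM, and fell to 3.74, 3.64, 4.69 and 4.34 CPM at E17 (log2 fold change -3.31 ± 0.22, adjusted p = 4.3e-13). Its E17 level was low, and it returned to 8.16, 12.1, 9.73 and 12 CPM at P1 (log2 fold change 1.35 ± 0.21, adjusted p = 1.1e-05) and 7.67, 11.6, 7.53 and 10.9 CPM at P5 before 1.38, 1.53, 0.939 and 1.52 CPM at P14 (log2 fold change -2.82 ± 0.23, adjusted p = 3.2e-10). The P1 libraries did not overlap with E17, nor those of P5 with P14. Per length Lama1 was at 4.23 ± 0.724 and Lama2 at 5.35 ± 2.19 RPKM at E13, and at 1.08 ± 0.196 and 157 ± 17.5 RPKM at P1. Lama1 reached 0.439, 0.145, 0.373 and 0.0628 CPM at P60 (log2 fold change -1.74 ± 0.37, adjusted p = 0.0012 against P24, and log2 fold change -3.99 ± 0.31, adjusted p = 1.1e-11 against E17). These P60 values are very low, so the size of both changes is uncertain.

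Lamb1 encodes the β1 chain and Lamc1 the γ1 chain, which together complete most laminins of the nerve. Lamb1 stood at 282, 547, 358 and 297 CPM at E13, 3490.4, 3616, 3644 and 3614 CPM at E17 and 798, 968, 835 and 807 CPM at P60. Lamc1 stood at 255, 564, 344 and 264 CPM, 4308, 4683, 4852 and 4778 CPM and 718, 632, 658 and 649 CPM at the same stages. Both rose to E17, Lamb1 with log2 fold change 3.27 ± 0.15, adjusted p = 2.2e-16 and Lamc1 with log2 fold change 3.71 ± 0.17, adjusted p = 5.7e-16. From E17 to P60 both fell, Lamb1 with log2 fold change -2.08 ± 0.14, adjusted p = 3.6e-13 and Lamc1 with log2 fold change -2.81 ± 0.17, adjusted p = 3.1e-14. Per length Lamc1 was at 563 ± 29.2 and Lamb1 at 362 ± 6.92 RPKM at E17, but with the length of the longest transcript they were at 611 and 621 RPKM, so their order depended on the length used. From P24 to P60 Lamc1 dropped past the call (log2 fold change -1.22 ± 0.16, adjusted p = 2.5e-06) and Lamb1 just less than 2-fold (log2 fold change -0.96 ± 0.13, adjusted p = 7.7e-06).

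Lamb2 encodes the β2 chain, which replaces β1 at synapses and in parts of the adult basal lamina. It stood at 25.2, 80.5, 55.8 and 61.6 CPM at E13, 109, 113, 129.5 and 112 CPM at E17 (log2 fold change 1.05 ± 0.25, adjusted p = 0.00081), 209.8, 206, 224 and 252 CPM at P14, 306, 174, 311 and 283 CPM at P24 and 364, 322, 376 and 424 CPM at P60. The call to E17 was lost without E13 replicate 1 (0.80), without E17 replicate 3 (0.99), without the 3 libraries that follow GC content (0.77) and without TMM (0.81, all log2 fold changes). The later rise was spread over many steps: no adjacent comparison after E17 passed the call, while P60 against E17 did (log2 fold change 1.68 ± 0.26, adjusted p = 2.3e-06). Lamb3, the β3 chain of epithelial laminin, read 0.125, 0.43, 0.0428 and 0.0734 CPM at P5, 3.22, 1.07, 0.735 and 2.51 CPM at P14 (log2 fold change 3.33 ± 0.76, adjusted p = 0.0014) and 7.89, 0.726, 4.85 and 4.77 CPM at P60. P60 against E17, where it read 0.385, 0.158, 0.116 and 0.189 CPM, gave log2 fold change 4.43 ± 0.79, adjusted p = 2e-05. Lamc3, a γ3 chain of restricted distribution, had a gap at E17. It stood at 8.74, 15.9, 18 and 26.4 CPM at E13, 0.495, 0.317, 0.388 and 0.314 CPM at E17 (log2 fold change -5.48 ± 0.32, adjusted p = 4.8e-14) and 2.77, 3.04, 5.07 and 3.75 CPM at P1 (log2 fold change 3.25 ± 0.32, adjusted p = 9.2e-09). At E17 this was at most 10 counts in a library, so the size of both changes is uncertain. It rose again from 6.54, 6.39, 5.43 and 5.62 CPM at P5 to 11.5, 14.7, 15.4 and 13.2 CPM at P14 (log2 fold change 1.19 ± 0.23, adjusted p = 0.0003). At P60 it was 15.9, 22.6, 17.5 and 11.3 CPM, overlapping with E13 and above every E17 library (log2 fold change 5.45 ± 0.32, adjusted p = 2.6e-14).

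**Figure D2:**
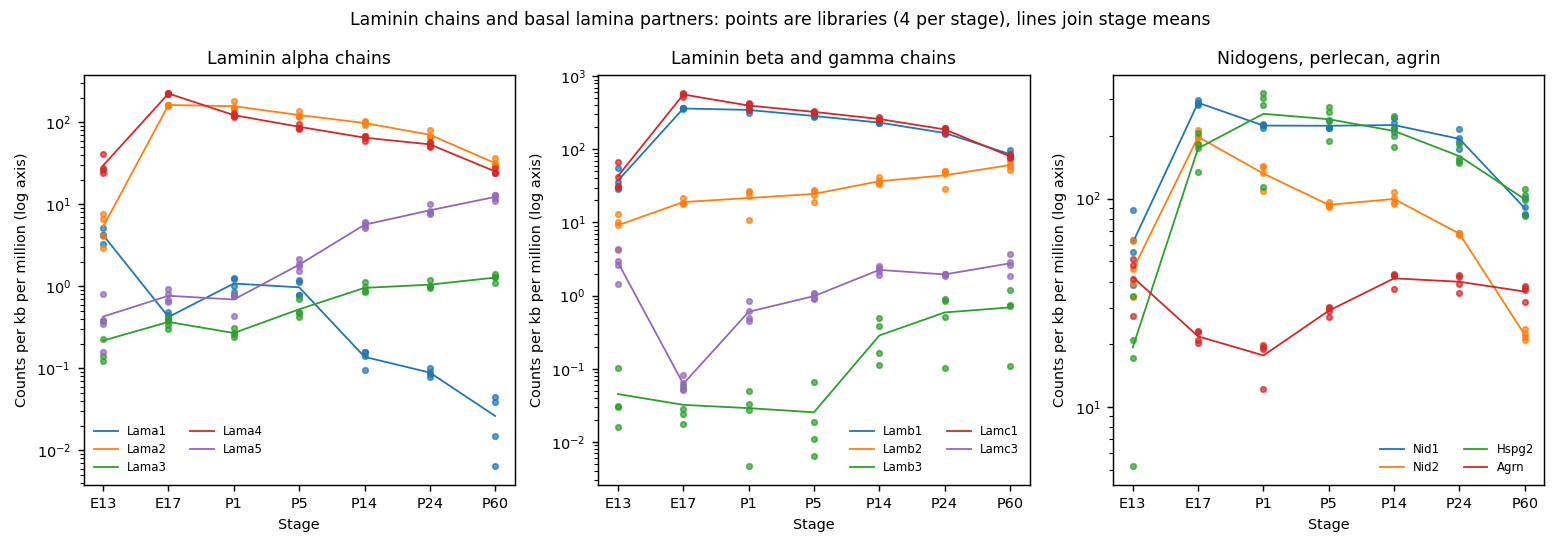
RPKM on a log axis at each stage, with a point for each of the 4 libraries and a line through the stage means, for the laminin α chains (left), the β and γ chains (middle) and the nidogens, perlecan and agrin (right). Lama2, Lama4, Lamb1 and Lamc1 top out at E17 and decline to P60, Lama5 and Lamb2 climb to P60, and Lamc3 shows its dip at E17.

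Per length, the make-up of each laminin chain class shifted along the timeline, which is given as a description without a test. The ratio of Lama4 to Lama2 was 6.11 (range 3.38 to 8.1) at E13 and 1.38 (1.37 to 1.38) at E17, and from P1 on the ratio lay between 0.617 and 0.847 in every library. Lama2 and Lama4 thus changed order between E17 and P1. With the length of the longest transcript in place of all exons the ratio was 1.62 at E17 and 0.918 at P1. Of the summed α chain level, Lama2 held 41.9 ± 0.089% at E17, 57.8 ± 1.14% at P14 and 44.9 ± 2.12% at P60. Lama5 went from 0.198 ± 0.0319% at E17 to 6.36 ± 1.11% at P24 and 17.6 ± 2.24% at P60. With the longest transcript these Lama5 shares were 0.106%, 3.6% and 10.5%, lower throughout and rising in the same order. The summed level itself dropped from 389 to 70.6 RPKM between E17 and P60, so that a rising Lama5 and falling Lama2 and Lama4 both enter this share.

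In the β class, Lamb2 held 4.99 ± 0.328% of the summed level at E17, 13.6 ± 0.884% at P14 and 41.4 ± 4.53% at P60, and Lamb1 held nearly all of the rest. The Lamb2 to Lamb1 ratio was 0.0504 to 0.0579 at E17, 0.149 to 0.175 at P14, 0.165 to 0.315 at P24 and 0.542 to 0.857 at P60, and these 4 stages overlapped only between P14 and P24. At E13 the ratio was 0.146 to 0.338, so its mean was lowest at E17. With the longest transcript the mean ratio was 0.0331 at E17 and 0.453 at P60 (0.341 to 0.54), and the Lamb2 share was 3.2% at E17 and 30.9% at P60. In the γ class, Lamc1 held 99.98 to 99.99% at E17 and still 96.7 ± 0.991% at P60. The γ class thus stayed with 1 chain while the β class did not.

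**Figure D3:**
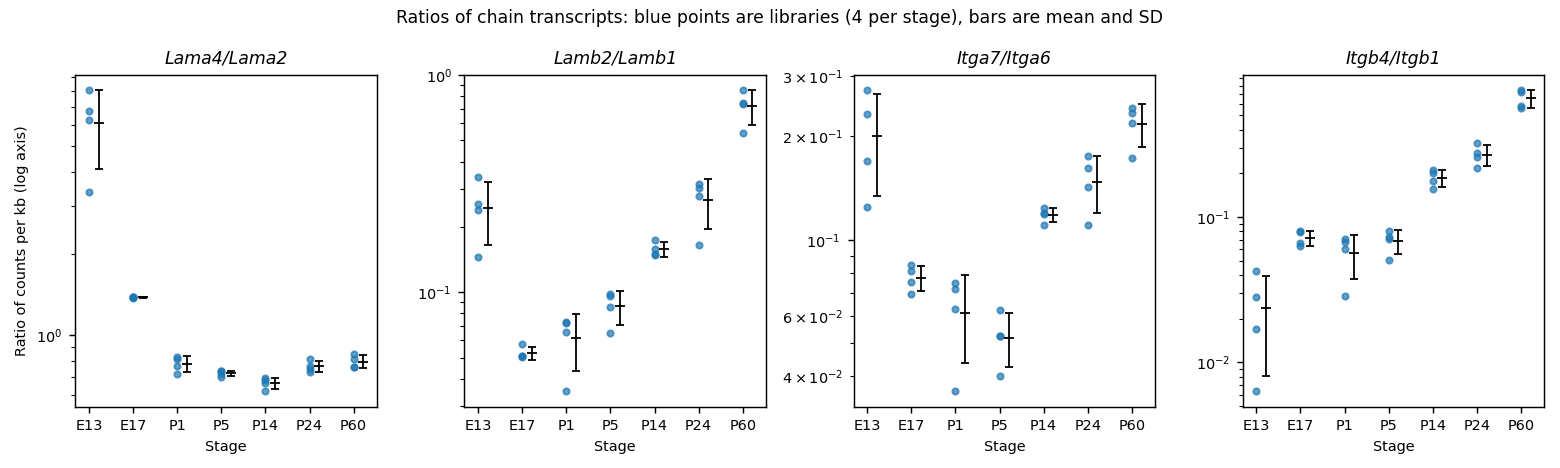
Ratio of RPKM levels of 2 chains in each library (blue points, 4 per stage, log axis) with mean and SD beside them, for Lama4 over Lama2, Lamb2 over Lamb1, Itga7 over Itga6 and Itgb4 over Itgb1. Lama4 over Lama2 falls below 1 after E17, and the other ratios have their highest postnatal means at P60.

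The nidogens Nid1 and Nid2 bind the γ1 chain and bridge it to collagen IV. Nid1 stood at 442, 611, 384 and 269 CPM at E13, 1953, 2062, 2003 and 2008 CPM at E17 (log2 fold change 2.23 ± 0.15, adjusted p = 9e-13) and 1305, 1206, 1361 and 1508 CPM at P24, and then at 699.7, 581, 585 and 634 CPM at P60 (log2 fold change -1.11 ± 0.15, adjusted p = 3.3e-06). Nid2 went from 175, 324, 237 and 203 CPM at E13 to 946, 1015, 1035 and 1104 CPM at E17 (log2 fold change 2.13 ± 0.13, adjusted p = 1.4e-13), then to 354, 344, 351 and 355 CPM at P24 and 112, 123, 109 and 115 CPM at P60. The last step was the largest Nid2 fall between adjacent stages (log2 fold change -1.62 ± 0.13, adjusted p = 8.5e-10). The protein-coding gene Rtraf shares 8.45% of the exon bases of Nid2 on the opposite strand. From E17 to P60 Nid1 gave log2 fold change -1.68 ± 0.15, adjusted p = 1.1e-10 and Nid2 gave log2 fold change -3.16 ± 0.14, adjusted p = 3.4e-17. Mean levels of Nid1 were 1558, 1555 and 1567 CPM at P1, P5 and P14, whereas the means of Lamb1 and Lamc1 were lower at each of these stages than at the one before.

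Hspg2, the perlecan gene, stood at 74.5, 486, 246 and 298 CPM at E13 and 1919, 2505, 2955 and 2611 CPM at E17 (log2 fold change 3.18 ± 0.35, adjusted p = 1.1e-08). Its P1 libraries read 1629, 4049, 4355 and 4596 CPM, and replicate 1, the library low in GC-rich transcripts, was far below the others. By P60 it was at 1183, 1590.2, 1414 and 1496 CPM, below every E17 library, with a change short of 2-fold (log2 fold change -0.81 ± 0.32, adjusted p = 0.03). Agrn, whose product agrin organizes synapses and also sits in basal laminae, had no call. It stood at 253, 476, 382 and 448 CPM at E13, where neuronal markers were high, 189, 195, 215 and 211 CPM at E17 (log2 fold change -0.94 ± 0.15, adjusted p = 4.3e-06) and 296, 352, 337 and 344 CPM at P60 (log2 fold change 0.71 ± 0.15, adjusted p = 0.00015), so its changes passed the p threshold and not the 2-fold limit. In P1 replicate 1 it was 114 CPM, against 176 to 185 CPM in the other P1 libraries.

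Among the integrins that bind laminin, Itga6 (α6) pairs with β1 or β4, and Itga7 (α7) and Itga3 (α3) pair with β1. Itga6 stood at 121, 152, 104 and 70.9 CPM at E13, 1801, 1842, 1773 and 1807 CPM at E17 (log2 fold change 4.01 ± 0.16, adjusted p = 1.5e-17), 2460.2, 2335, 2063 and 2137 CPM at P1 and 1042, 1040.0, 968 and 986 CPM at P60. Itgb1, the β1 chain whose loss in Schwann cells blocks radial sorting, stood at 406, 332, 251 and 156 CPM at E13, 1178, 1156, 1148 and 1164 CPM at E17 (log2 fold change 2.02 ± 0.17, adjusted p = 6.2e-11) and 771, 722, 696 and 708 CPM at P60. From E17 to P60 the changes were log2 fold change -0.84 ± 0.14, adjusted p = 7e-06 for Itga6 and log2 fold change -0.68 ± 0.16, adjusted p = 0.00067 for Itgb1, both past the p threshold and under 2-fold. Per length Itgb1 and Itga6 were the most abundant integrin chains from E17 to P24. At P60 Itgb1 was at 177 ± 8.03 and Itga6 at 112 ± 4.18 RPKM, but at 190 and 234 RPKM with the longest transcript, which turns their order. Lama2, Lama4, Lamb1 and Lamc1 thus changed by more than 2-fold from E17 to P60 and these receptor chains by less, a contrast that was not itself tested.

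Itgb4, the β4 chain, joins α6 in the receptor that mature Schwann cells and perineurial cells carry on the side of the basal lamina. It stood at 4.4, 16.2, 7.37 and 11.5 CPM at E13, 128, 132, 156 and 159.7 CPM at E17 (log2 fold change 3.87 ± 0.27, adjusted p = 1.2e-12), 134, 132, 147 and 106 CPM at P5, 296, 301, 356 and 351 CPM at P14 (log2 fold change 1.33 ± 0.24, adjusted p = 8.6e-05), 476, 383, 426 and 407 CPM at P24 and 769, 701, 873 and 912 CPM at P60. Libraries did not overlap between P5 and P14, between P14 and P24 or between P24 and P60, and P60 lay above E17 with log2 fold change 2.5 ± 0.25, adjusted p = 9.9e-10. Per length Itgb4 was at 116 ± 13.7 and Itga6 at 112 ± 4.18 RPKM at P60, whereas with the longest transcript Itgb4 was at 131 and Itga6 at 234 RPKM. The Itgb4 to Itgb1 ratio of RPKM was 0.063 to 0.0798 at E17 and 0.565 to 0.749 at P60, and Itgb4 held 4.93 ± 0.524% and 28.6 ± 2.94% of the summed β chain level. The lincRNA B230344G16Rik shares 7.66% of the exon bases of Itgb4 on the opposite strand.

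Itga7, a receptor known from muscle and nerve, stood at 13.5, 31.8, 15.7 and 17.4 CPM at E13 and 112, 124, 129 and 136 CPM at E17 (log2 fold change 2.68 ± 0.20, adjusted p = 6.8e-12). Later it stood at 105, 99.6, 115 and 90 CPM at P5 and 207, 207, 211 and 217 CPM at P14 (log2 fold change 1.04 ± 0.19, adjusted p = 0.0001), and kept near that level with 218, 161, 191 and 214 CPM at P60. Without P5 replicate 4 the step to P14 was 0.98 and missed the 2-fold limit. Its ratio to Itga6 was 0.0402 to 0.0626 at P5, 0.111 to 0.124 at P14 and 0.173 to 0.242 at P60. Itga3 was low at E17 (1.54, 2.43, 1.71 and 1.45 CPM) and rose in 2 calls, to 3.58, 4.55, 4.49 and 2.64 CPM at P5 (log2 fold change 1.30 ± 0.25, adjusted p = 0.00049) and 17.3, 19.9, 25 and 20.7 CPM at P14 (log2 fold change 2.44 ± 0.24, adjusted p = 8.4e-09). It reached 43.1, 52.2, 48.1 and 49.1 CPM at P60, and P60 against E17 gave log2 fold change 4.75 ± 0.27, adjusted p = 1.1e-14. The E13 libraries held 7.75, 14.2, 14.3 and 18.8 CPM of Itga3, far above E17 (log2 fold change -2.94 ± 0.26, adjusted p = 1.6e-10), beside their neuronal markers. Whether those markers have a part in the E13 level was not tested.

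**Figure D4:**
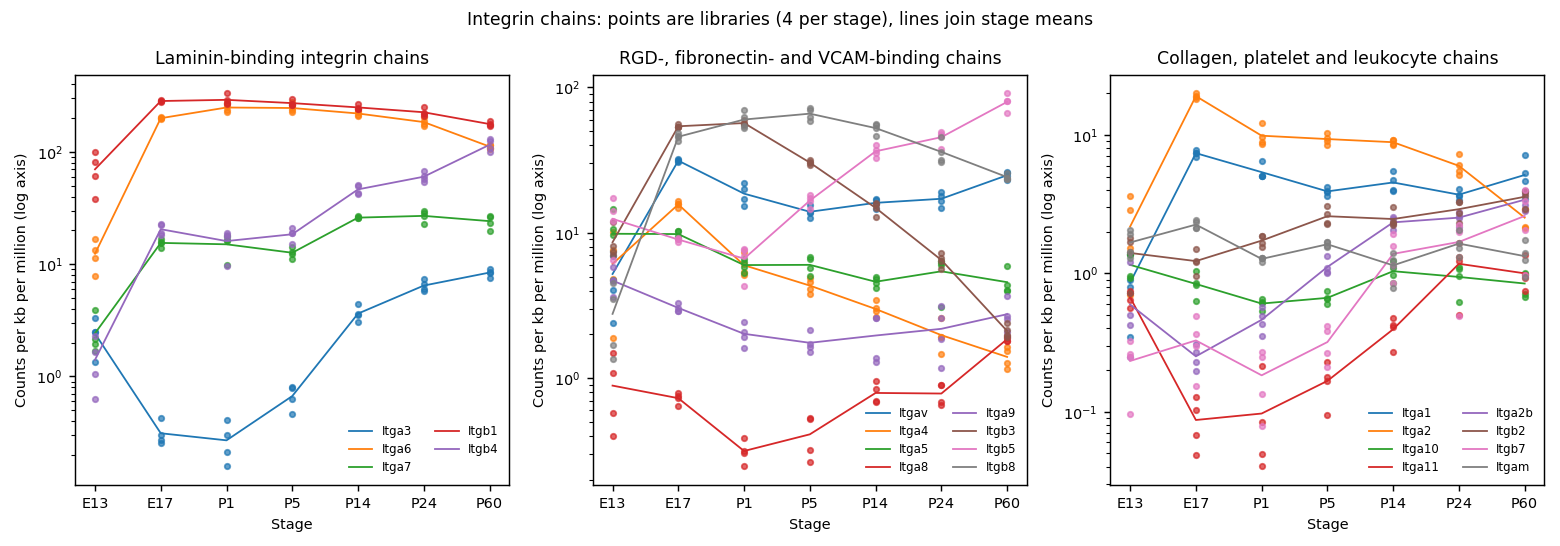
RPKM on a log axis at each stage, with a point for each of the 4 libraries and a line through the stage means, for laminin-binding integrin chains (left), chains that bind RGD ligands, fibronectin or VCAM (middle), and collagen, platelet and leukocyte chains (right). Lengths are unions of exons. Itgb4 climbs to P60, where its line meets that of Itga6 at these lengths and not with the longest transcript (131 and 234 RPKM). In the middle panel Itgb3 falls and Itgb5 rises from P1 on, and their lines cross between P5 and P14. The same 2 lines also cross between E13 and E17, where Itgb3 rises and Itgb5 falls.

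The αv chain (Itgav) pairs with several β chains to bind vitronectin, fibronectin and latent TGF-β, and these partners moved in opposite directions. Itgb3 stood at 41.3, 70.5, 48 and 43.6 CPM at E13 and 316, 317, 329 and 313 CPM at E17 (log2 fold change 2.65 ± 0.13, adjusted p = 1.2e-15). It was then 332, 329.8, 352 and 330.3 CPM at P1, 183, 177, 172 and 187 CPM at P5 and 95.1, 75.4, 87.4 and 92.5 CPM at P14 (log2 fold change -1.03 ± 0.12, adjusted p = 2.5e-07). Without P14 replicate 2 this step was -0.97 and missed the 2-fold limit. Itgb3 went on to 33, 43, 39.5 and 37.8 CPM at P24 (log2 fold change -1.19 ± 0.12, adjusted p = 5.1e-07) and 14.2, 12.7, 11.7 and 11.2 CPM at P60 (log2 fold change -1.62 ± 0.13, adjusted p = 8.9e-10). No 2 successive stages from E17 to P60 overlapped, and Itgb3 gave the strongest fall of the set from E17 to P60 (log2 fold change -4.68 ± 0.14, adjusted p = 3.3e-20).

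Itgb5 ran the other way, with 15.2, 27.1, 24.6 and 27.5 CPM at P1, 59, 61.8, 64.4 and 51.5 CPM at P5 (log2 fold change 1.33 ± 0.20, adjusted p = 1.5e-05) and 116, 126, 143 and 132 CPM at P14 (log2 fold change 1.13 ± 0.19, adjusted p = 5.4e-05). It reached 237, 325, 285 and 285 CPM at P60 (log2 fold change 3.15 ± 0.21, adjusted p = 2.9e-13 against E17). Per length Itgb3 was at 30.4 ± 1.1 and Itgb5 at 16.7 ± 1.56 RPKM at P5, and at 14.8 ± 1.48 and 36.4 ± 3.15 RPKM at P14, so their order changed between these stages. Itgb8, the partner known for activating TGF-β, rose from 49.9, 38.9, 18.7 and 14.9 CPM at E13 to 471, 514, 505 and 538 CPM at E17 (log2 fold change 4.05 ± 0.25, adjusted p = 1.9e-13). It was highest at P5 (696, 772, 653 and 801 CPM) and stood at 264, 286, 258 and 261 CPM at P60 (log2 fold change -0.92 ± 0.22, adjusted p = 0.00077 against E17, short of 2-fold). The shared Itgav rose to E17 (74.4, 80.2, 43.4 and 25.7 CPM at E13, 329, 343, 333 and 342 CPM at E17; log2 fold change 2.59 ± 0.21, adjusted p = 4.2e-11) and was 281, 263, 279 and 247 CPM at P60, where the change from E17 did not pass (log2 fold change -0.33 ± 0.20, adjusted p = 0.15).

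Of the remaining fibronectin and VCAM receptors, Itga4 (α4), known from migrating neural crest and leukocytes, stood at 107, 141, 67.4 and 26.3 CPM at E13 and 205, 232, 219.8 and 219 CPM at E17 (log2 fold change 1.36 ± 0.27, adjusted p = 0.00012). It fell to 104, 84.7, 74.6 and 71.4 CPM at P1 (log2 fold change -1.39 ± 0.27, adjusted p = 0.00029) and 21.6, 22.7, 16.1 and 17.8 CPM at P60 (log2 fold change -3.49 ± 0.30, adjusted p = 8.1e-11 against E17). Its exons share 8.04% of their bases with Cerkl on the opposite strand. Itga5, the α5 chain of the fibronectin receptor, was 50.6, 47, 50.6 and 45.1 CPM at E17 and 29, 19.6, 21.6 and 20 CPM at P60 (log2 fold change -1.10 ± 0.23, adjusted p = 0.00013). Itga8, an RGD receptor chain known from mesenchymal cells, was 5.33, 5.55, 4.77 and 5.78 CPM at E17, 2.33, 1.83, 2.26 and 2.85 CPM at P1 (log2 fold change -1.20 ± 0.28, adjusted p = 0.0019), 4.81, 5.07, 6.57 and 6.62 CPM at P24 and 13.9, 13.3, 13.2 and 14.3 CPM at P60. Its step after P24 was the 1 rise of the set that passed at that age (log2 fold change 1.24 ± 0.27, adjusted p = 0.0019; log2 fold change 1.35 ± 0.27, adjusted p = 0.00011 against E17). Itga9, which binds tenascin and VCAM, lay between 9.0 CPM in a P24 library and 44.7 CPM in an E13 library and gave no call.

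Collagen receptors pair with β1. Itga2, a receptor for collagen and laminin, stood at 25.7, 20.5, 10.9 and 5.0 CPM at E13, 131, 136, 135 and 143 CPM at E17 (log2 fold change 3.12 ± 0.28, adjusted p = 1.9e-10), 36.5, 52.1, 43 and 39.4 CPM at P24 and 20.5, 21, 15.5 and 15.3 CPM at P60 (log2 fold change -1.25 ± 0.26, adjusted p = 0.0013; log2 fold change -2.92 ± 0.28, adjusted p = 4.7e-10 against E17). Itga1, a receptor for collagen IV, was at 25.8, 16.7, 14.7 and 6.47 CPM at E13, 138, 129, 145 and 138 CPM at E17 (log2 fold change 3.10 ± 0.25, adjusted p = 3e-11 against E13) and 133, 64.4, 87.1 and 98.7 CPM at P60, where the stages overlapped. Itga11, a fibroblast receptor for fibrillar collagen, was 3.71, 2.91, 3.83 and 3.32 CPM at E13 and low at E17 with 0.66, 0.528, 0.349 and 0.251 CPM (log2 fold change -2.93 ± 0.42, adjusted p = 1.1e-06), and rose to 2.45, 2.09, 1.39 and 2.16 CPM at P14 (log2 fold change 1.25 ± 0.39, adjusted p = 0.015) and 6.7, 2.56, 8.54 and 6.28 CPM at P24 (log2 fold change 1.57 ± 0.36, adjusted p = 0.0069). Without P5 replicate 2 the step to P14 was 1.04 (adjusted p = 0.066) and missed the call. With 6.94, 3.85, 4.79 and 4.96 CPM at P60 Itga11 gave log2 fold change 3.51 ± 0.43, adjusted p = 5.2e-08 against E17. Itga10 stayed between 2.79 and 7.11 CPM in all libraries. It shares 33.5% of its exon bases with the same-strand gene Gm42957, so its level is uncertain.

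The integrin chains of leukocytes and platelets were low and did not move together. Itgb2, the β2 chain of leukocytes, went from 2.91, 4.59, 3.76 and 3.71 CPM at E17 to 11, 12, 8.95 and 11.7 CPM at P60 (log2 fold change 1.54 ± 0.21, adjusted p = 4e-07). Its partner Itgal fell from 4.63, 4.21, 3.68 and 4.04 CPM at P5 to 1.69, 1.13, 1.47 and 1.6 CPM at P14 (log2 fold change -1.48 ± 0.28, adjusted p = 0.00019) and 0.877, 0.653, 0.249 and 0.251 CPM at P60 (log2 fold change -1.75 ± 0.35, adjusted p = 0.00068 against P24). P60 lay below every E17 library (4.12, 5.07, 3.84 and 4.4 CPM; log2 fold change -3.12 ± 0.34, adjusted p = 5.6e-09). Another partner, Itgam, lay between 3.96 and 12.1 CPM throughout, and shares 68.7% of its exon bases with the same-strand gene Gm49368. Beside them, 6 macrophage markers summed to 89.0 to 97.9 CPM at E17 and 161 to 221 CPM at P60, and 6 lymphocyte markers to at most 1.98 CPM in any library.

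Itgae, the αE chain of epithelial T cells, and its partner Itgb7 rose from P5 to P14. Itgae was 1.33, 1.0, 1.03 and 0.771 CPM at P5, 3.58, 3.5, 3.51 and 2.54 CPM at P14 (log2 fold change 1.66 ± 0.24, adjusted p = 6.9e-06) and 6.14, 5.95, 6.34 and 7.79 CPM at P60. It had already risen from 0.166, 0.363, 0.253 and 0.158 CPM at E13 to 1.1, 1.16, 0.854 and 0.691 CPM at E17 (log2 fold change 1.99 ± 0.31, adjusted p = 3.9e-06), and P60 against E17 gave log2 fold change 2.78 ± 0.25, adjusted p = 2.7e-10. Itgb7 was 0.584, 1.06, 1.16 and 0.734 CPM at P5, 5.37, 2.37, 3.19 and 4.41 CPM at P14 (log2 fold change 2.11 ± 0.47, adjusted p = 0.001) and 11.2, 2.68, 5.72 and 9.23 CPM at P60 (log2 fold change 3.01 ± 0.48, adjusted p = 5.1e-06 against E17). The lymphocyte markers, which include Cd3e and Cd8a, summed to 0.0628 to 0.22 CPM at E17, 1.09 to 1.84 CPM at P5, 1.06 to 1.48 CPM at P14 and 0.435 to 0.95 CPM at P60. These sums were very low, with Nkg7 at 0 at P14 and P24. The part of lymphocytes in the levels of Itgae and Itgb7 was not tested. Itga2b, the αIIb chain of platelets, stood at 1.48, 1.69, 1.24 and 1.07 CPM at E17, 5.46, 6.02, 7.27 and 5.54 CPM at P5 (log2 fold change 1.26 ± 0.28, adjusted p = 0.0016), 12.3, 13.9, 13.5 and 11.3 CPM at P14 (log2 fold change 1.07 ± 0.27, adjusted p = 0.0029) and 15.3, 21.5, 17.2 and 20.4 CPM at P60, which gave log2 fold change 3.76 ± 0.31, adjusted p = 2.8e-11 against E17. Over the same span 5 platelet and megakaryocyte markers summed to 6.44 to 11 CPM at E17 and 10.3 to 15.3 CPM at P60, with Gp9 listed at 0 at P14, P24 and P60. The mean platelet sum was 8.44 CPM at E17 and 13.8 CPM at P60. Gp1bb alone made 7.01 CPM of the mean sum at E17 and 46.9 of 66.2 CPM at E13. At these stages the sum thus rests largely on that gene. The part of platelets in the Itga2b level was not tested. Itga2b was also called from E13 to E17, with 1.36, 2.75, 2.31 and 6.58 CPM at E13 and ranges that overlapped (log2 fold change -1.21 ± 0.31, adjusted p = 0.0013), where the platelet markers summed to 35.3 to 107 CPM. This call rested on E13 replicate 4, without which the log2 fold change was -0.63 (adjusted p = 0.016). It was also lost without the 3 libraries that follow GC content (-0.87) and with limma-voom (-0.80). With the 2 stages fitted alone by edgeR the log2 fold change was -1.22, and only the p threshold was missed (adjusted p = 0.054).

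Many chains that rose toward the adult did so while markers of the nerve sheaths and vessels rose. The summed level of 6 perineurial markers was 108 to 129 CPM at E17, 67.3 to 80.0 CPM at P5, 174 to 270 CPM at P14 and 313 to 594 CPM at P60. For 5 epineurial markers it was 11.9 to 19.5 CPM at E17 and 128 to 167 CPM at P60, for 6 endothelial markers 261 to 311 and 384 to 417 CPM, and for 5 pericyte and vascular smooth muscle markers 128 to 158 and 545 to 599 CPM. At E17, Slc2a1 (mean 62.6 CPM) and Cldn1 (54.2 CPM) made most of the perineurial sum (119 CPM). The means of the other perineurial markers there were at most 0.972 CPM. The paper also reports Slc2a1 in an endothelial cluster at P60. The 6 Schwann cell markers, which include myelin genes, summed to 3212 to 3511 CPM at E17 and 27863 to 37401 CPM at P60. The part of any of these cell types in the rises of Lama5, Lamb2, Itga3, Itgb4 and Itgb5 was not tested.

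Replicate 2 was the lowest in perineurial markers at both late stages, with 148 CPM at P24 (362.6 to 463 in the others) and 313 CPM at P60 (485 to 594 in the others). Other marker sums moved with the same libraries. Epineurial markers were also lowest there, at 82.2 CPM at P24 (146.6 to 186 in the others) and 128 CPM at P60 (149.5 to 167), and so were mast cell markers, at 2.67 CPM (5.44 to 12.6) and 18.2 CPM (28.4 to 32.5). At P24, replicate 2 was also lowest in endoneurial (146.7 against 188 to 241 CPM), endothelial (249.8 against 337 to 381 CPM), pericyte and smooth muscle (392 against 495 to 558 CPM), macrophage (149.4 against 224 to 247 CPM) and platelet sums (13.9 against 16.6 to 19 CPM), and highest in granulocyte markers (11 against at most 1.09 CPM). At P60, however, replicate 2 was highest in endothelial (417 against 384 to 400 CPM), neuronal (22.6 against 17.3 to 20.7 CPM) and cartilage sums (7.47 against 6.34 to 7.34 CPM). Its endoneurial, pericyte and smooth muscle, macrophage and platelet sums at P60 lay within the range of the others. Schwann cell markers were highest in replicate 2, at 51847 CPM at P24 and 37401 CPM at P60, as were erythroid markers, at 150.0 CPM (58.2 to 112 in the others) and 34.8 CPM (16.7 to 31.5). Of the 38 tested genes, 11 were lowest in replicate 2 at both of these stages, a share of 28.9%, while 9.14% of all genes tested were. This was noticed in the data and is a description, and the part of any of these cell types in it was not tested. It was strongest in Lamb3, with 0.68 CPM at P24 and 0.726 CPM at P60 in replicate 2, which is 0.137 and 0.124 of the mean of the other libraries. Itgb7 was next, at 0.235 and 0.308 of the others. By contrast Itgb4 was at 0.878 and 0.824, and Lama5 was not among the 11, since replicate 2 was its lowest P24 library and its highest P60 library. In an alternative chosen after seeing the data, without these 2 libraries, the counts of called genes were 2 from P14 to P24, 11 from P24 to P60 and 26 between E17 and P60, while 515, 909 and 6957 of all 18144 genes tested in that fit were called.

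**Figure D5:**
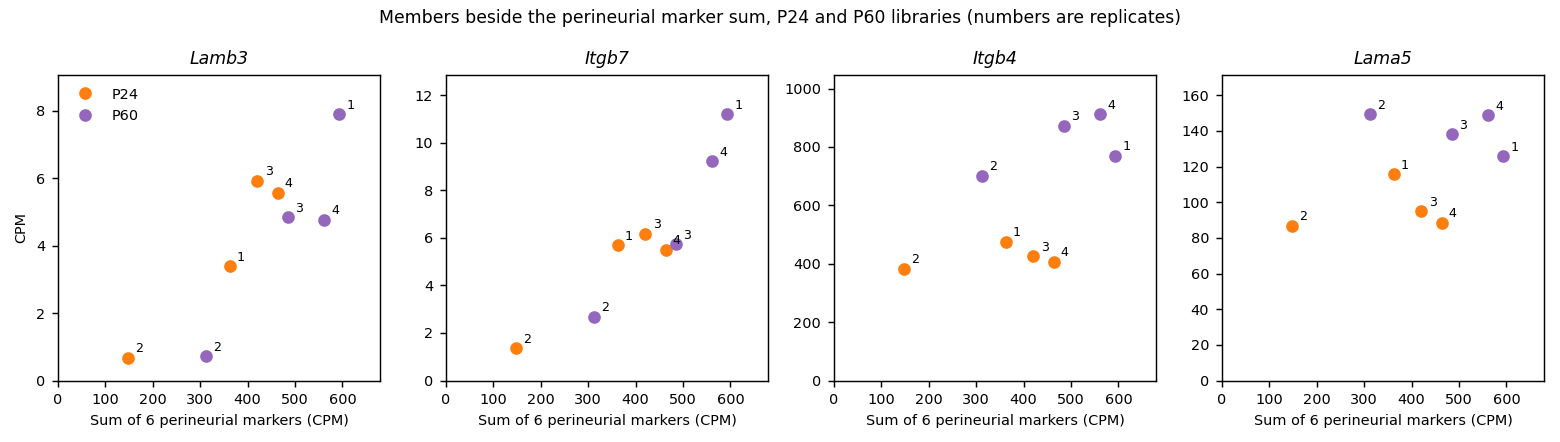
CPM of Lamb3, Itgb7, Itgb4 and Lama5 (vertical axes) against the summed CPM of 6 perineurial markers (horizontal axes) in the 4 P24 libraries (orange) and the 4 P60 libraries (purple), with replicate numbers beside the points. Replicate 2 is lowest on the horizontal axis at both stages and carries the 2 lowest values of Lamb3 and Itgb7, while Lama5 in that replicate is lowest at P24 and highest at P60.

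Other genes of the same matrix and its receptors were read from lists written for this purpose. Among all genes tested 14.2% rose and 21.2% fell from E13 to E17, 7.11% and 4.91% from P5 to P14, and 22.2% and 17.5% between E17 and P60, and the counts of each list stand beside these. Of 17 other basement membrane genes, 8 rose and 5 fell from E13 to E17, 6 rose and 2 fell from P5 to P14, and 6 rose and 7 fell between E17 and P60. The largest changes from E17 to P60 were rises of Col4a3 (7.0), an α3 chain of collagen IV, and Ntn4 (6.44), the laminin-related netrin 4, and falls of Col4a6 (-3.53) and Pxdn (-2.80), the peroxidase that cross-links collagen IV. From P5 to P14 the rises of Col4a3 (4.56) and Ntn4 (3.68) were also the largest of the list, while Col4a6 (-1.23) and Egflam (-1.05), the pikachurin gene, fell. From E13 to E17 Col15a1 (3.89) and Col4a4 (2.65) rose most and Smoc1 (-4.79) and Ntn4 (-3.44) fell most. Around birth Fbln1 (-1.65) and Smoc1 (-1.42) fell, and from P1 to P5 Ntn4 (2.85) and Smoc1 (1.42) rose and Col4a6 (-1.11) fell. From P24 to P60 Col4a3 (1.41) rose and Col15a1 (-1.53) fell. The bracketed values are log2 fold changes.

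Of 15 other laminin receptors and linkers, 11 rose and 1 fell from E13 to E17, and 6 rose and 1 fell between E17 and P60. Drp2, which ties the dystroglycan complex to the myelin membrane, fell to E17 (-2.47) and then rose at P1 (3.85), P5 (2.81) and P14 (2.05), from a mean of 7.96 CPM at E17 to 7577 CPM at P60 (9.90). Dmd, the dystrophin gene, rose to E17 (4.02) with Sgcd (4.09), a sarcoglycan, and fell from P24 to P60 (-1.17). Utrn, its homologue utrophin, rose at P1 (1.49). Prnp rose from P5 to P14 (1.34), and Bcam, a receptor for the laminin α5 chain, rose from E17 to P60 (3.44). Adgrg6, the adhesion receptor known to bind laminin and collagen IV in Schwann cells, fell over that span (-1.36).

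Of 23 integrin adaptors and signalling genes, 22 were tested, and 8 rose and 2 fell from E13 to E17, while 5 rose and 3 fell between E17 and P60. The shares of the latter span were near those of all genes. Fermt2 (2.26), the kindlin that activates integrins, and Vcl (1.90), vinculin, rose most to E17, and Parvb (-2.46) and Fermt3 (-1.59) fell most. After E17 Lims2, a partner of integrin-linked kinase, rose at P1 (1.38), P5 (1.38), P14 (1.93) and P60 (1.02), to 6.09 in all. Fyn, a Src family kinase, rose at P1 (1.56). Tns2, a tensin, rose at P14 (1.26) and P60 (1.45; 2.62 from E17). Talin 2, Tln2, fell from P24 to P60 (-1.03) and from E17 (-2.39), as did Src from E17 (-1.28).

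Of 10 other integrin ligands, 4 rose and 3 fell from E13 to E17, and 5 rose and 4 fell between E17 and P60. Spp1, the osteopontin gene and a ligand of the αv integrins, rose at P5 (1.26), P14 (3.13), P24 (1.92) and P60 (2.35), from a mean of 3.98 CPM at E17 to 1673 CPM at P60. Tnc, the tenascin C gene, fell at P1 (-2.10), P5 (-1.15) and P14 (-1.27), to -5.36 from E17 to P60. The collagen genes Col1a1 and Col3a1 rose to E17 (3.70 and 3.18) and fell after P24 (-1.47 and -2.57; Col3a1 -3.29 from E17). Vtn, vitronectin, and Vcam1 fell to E17 (-2.53 and -2.51), Vtn rose at P1 (1.10; 2.38 from E17 to P60), and Vcam1 rose at P5 (1.11). Thbs2, a thrombospondin, rose at P1 (1.10) and fell from P14 to P24 (-1.10).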

How the data were processed

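Total RNA of mouse peripheral nerve was sequenced after poly-A selection with a TruSeq stranded kit, in 28 libraries of 7 stages. The deposited file holds whole-number counts per gene, not normalized, and all of its 28 value columns were matched to a labelled sample (0 columns were not used). According to the submitters' processing notes, the authors used bcl2fastq, STAR 2.6.1c, featureCounts and build GRCm38.p5. The strand setting of the counting is not given in the sources used here, so reads shared with overlapping genes cannot be assigned. Groups were taken from the stage given in the labels. The members and all gene lists were chosen with earlier results of these data known.

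The counts were scaled by TMM and tested with the quasi-likelihood test of edgeR 4.0.16 (R 4.3.3) in 1 fit of all 28 libraries with stage as the term, after filterByExpr, which kept 17700 genes. P-values were adjusted by Benjamini-Hochberg over these genes, and calls needed an adjusted p under 0.05 and a 2-fold change. RPKM used the union of a gene's exons in GENCODE M21. Libraries of a stage are separate animals or pools, and none (0) of 42 pairs of libraries within a stage were identical. All 39 members are named, with full statistics for called changes, and of the pathway lists the 2 called genes with the largest fold per direction and comparison. Alternatives covered scaling, filters, limma 3.58.1 (voom) and DESeq2 1.42.0, the libraries included, GC content, gene length and the replicate number as a block. Same-numbered libraries deviated together in all 4 pairs only between E17 and P1 (correlations 0.111 to 0.218), and in 2 of 4 in the other comparisons, so the fit has no block. The scripts were tested on simulated data.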

Additional observations from a re-analysis of the deposited data

Results flagged for a closer look

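Among 294 groups of 4 libraries (38 genes and 4 ratios at 7 stages), 15 held a library whose distance to the nearest of the others exceeded Dixon's 95% critical share of the group's range. Chance alone gives about 1 in 20 groups. Of the 15, 6 were at P1, and 4 of these were in P1 replicate 1, the library low in GC-rich transcripts. In that library Lama5 was at 4.994 CPM (8.787 to 8.953 in the others), Agrn at 113.7 CPM (176.4 to 184.7), Itgb4 at 66.99 CPM (123.4 to 132.9) and Itga1 at 119.8 CPM (93.56 to 94.04). Also at P1, Itgam was low in replicate 2 at 6.122 CPM (6.453 to 6.515), and Itgb3 was high in replicate 3 at 351.9 CPM (329.8 to 331.7).

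P24 replicate 2, which had the lowest perineurial, epineurial, endoneurial, endothelial, pericyte, macrophage, platelet and mast cell marker sums and the highest granulocyte, Schwann cell and erythroid sums of its stage, was low in Itga5 at 15.12 CPM (29.56 to 31.71) and in Itgb7 at 1.36 CPM (5.493 to 6.174). The part of these cell types in these values was not tested. At the same stage Lama2 was high in replicate 4 at 1305 CPM (1088 to 1124). At P14, Agrn was low in replicate 1 at 340.6 CPM (396.8 to 403.5), Itgae low in replicate 4 at 2.545 CPM (3.504 to 3.579) and Itgb2 high in replicate 2 at 9.155 CPM (6.837 to 7.158). Lama4 was high in P60 replicate 1 at 337.2 CPM (288.7 to 296), and Lamb3 was high in E13 replicate 3 at 0.6861 CPM (0.1052 to 0.2019). The ratio of Lamb2 to Lamb1 was high in E17 replicate 3 at 0.05794 (0.0504 to 0.05089).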

How the results depend on the processing

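The counts of called genes stayed within 1.5 times under all alternatives but the call rule without a minimum fold change, which gave 12 genes from E17 to P1, 11 from P1 to P5 and 5 from P14 to P24, beside 5225, 3114 and 964 of all 17700 genes. Leaving out each library in turn gave 23 to 25 genes from E13 to E17, 4 to 5 to P1, 4 to 6 to P5, 14 to 15 to P14, 2 to 2 to P24, 10 to 12 to P60, 26 to 26 between E17 and P60 and 37 to 38 over the timeline. With the replicate block the counts were 24, 4, 4, 14, 2, 10, 26 and 37, as without it, and the block changed none of these counts. Of 1694 values of single genes under alternatives, 16 lost the call and 0 reversed. For each of the 84 called changes, these values include the rule without a minimum fold change, under which no call could be lost. The calls lost at least under 1 alternative were Lamb2 and Itga2b from E13 to E17, Itga2b, Itga7, Itga11, Itgb3 and Itgb5 from P5 to P14, and Lama4 and Nid1 from P24 to P60. Lamb2 lost its call without E13 replicate 1 or E17 replicate 3, Itga2b without E13 replicate 4, and Itga7, Itga11 and Itgb3 without P5 replicate 4, P5 replicate 2 and P14 replicate 2. Scaling by library totals alone lost Lamb2 from E13 to E17, Itga2b, Itga7 and Itgb5 from P5 to P14, and Lama4 and Nid1 from P24 to P60. Leaving out the 3 libraries that follow GC content lost Lamb2 and Itga2b from E13 to E17, and limma-voom and the fit of the compared stages alone lost the latter. The cause was not tested. Under scaling by library totals alone the median over all genes was -0.33 from E13 to E17 and -0.307 from E17 to P60, and the median from P24 to P60 was 0.0992, with 2 members higher and 7 lower. The low counts of Lama3, Lamb3, Lamc3, Itgae, Itgal and Itgb7, of Lama1 at P60 and of Itga11 at E17 limit the precision of their changes.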
